A study of Mus musculus with 6 samples.

Results

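Hippocampal microglia without RNA of brain border macrophages were examined in APP/PS1 mice given an antisense oligonucleotide (ASO) or saline. They were selected on measured values: from the cells that the authors had placed in a joint class of microglia and macrophages, those were chosen by a summed count of 0 for Mrc1, Cd163, F13a1, Lyve1, Pf4, Ms4a7, Cbr2 or Ccl24. The rule gave 1776 of the 12823 cells in the data and left out 133 of the 1909 cells of the class. Removal of cells called as doublets left 1725 microglia of 12616 cells, and the values below refer to these unless stated otherwise.

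Single-cell suspensions of hippocampus were profiled by Drop-Seq, in which each cell is caught in a droplet with a barcoded bead and its transcripts are read at the 3' end and counted by molecular barcode (unique molecular identifier, UMI). All 6 mice were APP/PS1 mice of the line that carries the APPswe and PSEN1dE9 transgenes, a model of amyloid deposition, and all were 10 weeks old. The control group of 3 mice had received phosphate buffered saline (PBS), and the other 3 mice had received the ASO. IDOL, whose reduction is the subject of the series title, is the protein made from Mylip, and Mylip is treated here as the targeted gene. Mice without the transgenes and mice given a control oligonucleotide were not analysed here, so what any oligonucleotide does and what loss of the target does cannot be told apart. The mouse was the replicate, and whether the mice were handled in separate experiments is not stated, so p-values measure the spread between these mice.

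Microglia are the resident macrophages of the brain parenchyma. They depend on signalling through the receptor Csf1r, and in the undisturbed brain they express P2ry12, Tmem119 and Cx3cr1, a purinergic receptor, a membrane protein and the fractalkine receptor. Near amyloid they can take on a state, often called disease-associated, with more RNA of Apoe, Trem2, Cst7 and lysosomal genes and less of those resting genes. IDOL is a ubiquitin ligase that is induced by liver X receptors (LXR) and marks receptors of the low-density lipoprotein receptor family for degradation, and interleukin 1 beta, encoded by Il1b, is a cytokine that activated microglia and macrophages make.

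Mylip and Il1b were the genes whose RNA differed between ASO and PBS microglia after adjustment. Mylip lies on the plus strand of chromosome 13, from 45389742 to 45412022, and Il1b on the minus strand of chromosome 2, from 129364570 to 129371139 (build GRCm38, GENCODE M21). The 250 bases before each start site, from RefSeq (GRCm38.p6), are shown because they are the proximal control regions of both genes, at chr13:45389492-45389741 (plus strand) and chr2:129371140-129371389 (minus strand). Capitals mark the letters TATAAA.
Mylip: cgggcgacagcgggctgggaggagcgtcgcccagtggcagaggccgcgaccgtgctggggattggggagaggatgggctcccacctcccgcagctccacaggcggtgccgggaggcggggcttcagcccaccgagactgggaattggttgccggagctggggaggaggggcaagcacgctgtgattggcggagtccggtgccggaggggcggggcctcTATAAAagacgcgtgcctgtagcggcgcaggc
Il1b: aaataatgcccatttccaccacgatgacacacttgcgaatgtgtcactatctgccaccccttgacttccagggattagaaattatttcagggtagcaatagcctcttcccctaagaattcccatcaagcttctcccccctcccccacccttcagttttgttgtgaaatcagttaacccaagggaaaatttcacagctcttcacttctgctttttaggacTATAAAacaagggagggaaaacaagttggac
Both windows held TATAAA on the strand of the gene, from 32 to 27 bases before the start in Mylip (positions -32 to -27) and at -31 to -26 in Il1b. Over 32536 distinct promoter windows of the same length, 12.3% held TATAAA on either strand, as did 6.56% of the 5110 windows of genes tested in microglia. The letters GAGGAAGT (a PU.1 motif), GGGA and CC with 4 bases of any kind between (an NF-kB motif) and TGANTCA (an AP-1 motif) had no match on either strand of these 2 windows, and were present in 2.45%, 17.7% and 6.73% of all windows and in 2.88%, 22.1% and 4.305% of those of tested genes. The motifs were chosen after the results were known, and a match describes letters only.

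The NF-kB letters did occur before other genes described below. They are shown for Tlr2 (chr3:83841762-83841789, minus strand), a receptor for bacterial lipoproteins, for Cxcl2 (chr5:90903793-90903820, plus strand), a neutrophil chemokine, and for P2ry12 (chr3:59263018-59263045, minus strand), so that an immune response gene and a resting gene can be set beside each other. Capitals mark the match to that motif or its reverse complement.
Tlr2: ggacacctgGGGAATTCCCacacggagc
Cxcl2: ctgagctcaGGGAATTTCCctggtcccc
P2ry12: taacaagaaGGAAGTTCCCcagtgacac
The match in Cxcl2 overlapped a further one on the other strand, shifted by 1 base. P2ry12, a resting gene, thus held a match as Tlr2 and Cxcl2 did. No such match was found for the other microglial markers Tmem119, Cx3cr1, Csf1r and C1qa.

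The marker genes of microglia, given as a description because the authors' class rests on expression, were at high levels. C1qa, a chain of the first complement component, stood at 2249 UMIs per 1000000 UMIs (CPM) in the microglia and at 6.24 in cells outside the class. Cx3cr1 stood at 2181 against 16.8 CPM, P2ry12 at 1525 against 5.67, Tmem119 at 476 against 1.70, and Csf1r at 1902 against 5.83. A UMI of at least 1 of these 5 genes was found in 99.0% of microglia and UMIs of at least 3 of them in 85.1%, while 17 cells had none. The median microglia held 8 UMIs of the 5 markers. The highest level of any of the 5 in another class was 251.3 CPM, of Cx3cr1 in ependymal cells.

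At the edge of the rule, cells with 1 macrophage UMI lay between the microglia and the cells with more in several genes, but not in all. P2ry12 stood at 1525 CPM in the 1725 microglia, 1200 in the 53 cells with 1 such UMI and 141.5 in the 74 cells with 2 or more. Tmem119 stood at 476, 276 and 47.2 CPM in that order. Lyz2, a lysozyme gene of macrophages whose reads may be shared with its near-identical copy Lyz1, went the other way, with 1149, 4798 and 10970 CPM. The same held for Apoe, the apolipoprotein E gene (7416, 30330 and 48420 CPM), and for Cd74, the invariant chain of MHC class II (151, 2496 and 3160 CPM). Mylip stood at 284, 243 and 59.0 CPM. C1qa (2249, 2804 and 1627 CPM) and Il1b (423, 1248 and 814 CPM) were highest in the cells with 1 such UMI. These values were read from the cells that the rule divided, pooled over PBS and ASO mice, and describe the rule. A count of 0 limits the UMIs found and does not show that a cell lacks these transcripts.

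**Figure D1:**
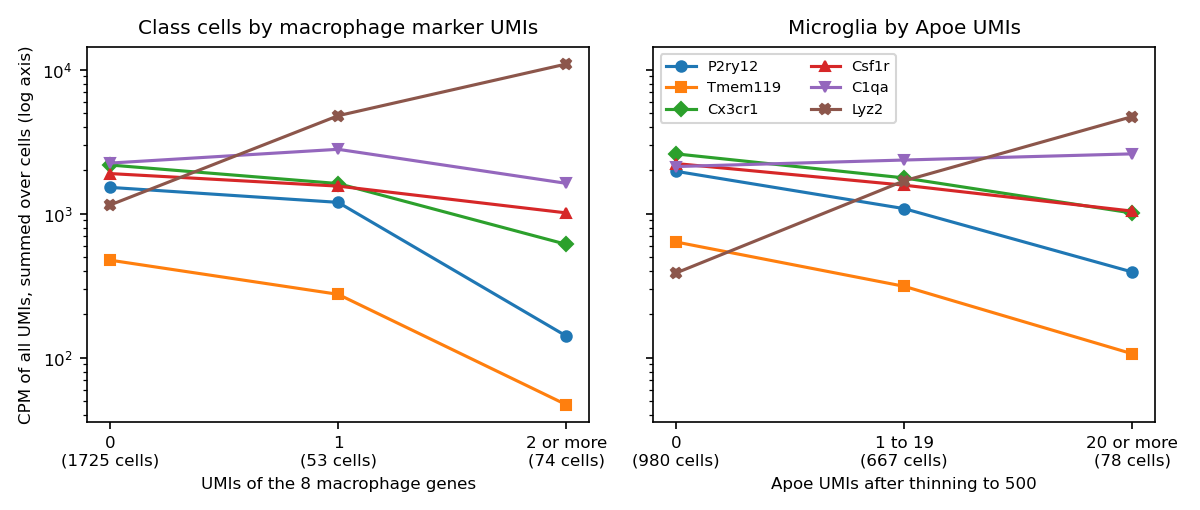
Levels of 6 genes in CPM of all UMIs (log axis), with the cells of the class split by macrophage marker UMIs (left) and the microglia split by Apoe UMIs after thinning each cell to 500 UMIs (right). P2ry12 and Tmem119 are lower and Lyz2 is higher in cells with more macrophage UMIs and, among the microglia, in cells with more Apoe UMIs. Cells of PBS and ASO mice are pooled.

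The mice gave 186 to 406 microglia each (257, 266 and 343 in PBS 1 to 3, and 406, 186 and 267 in ASO 1 to 3), with 190006 to 439833 UMIs in all and a median of 943 to 1025 UMIs per cell. The median share of mitochondrially encoded UMIs was 3.72% to 6.21%. Across mice, 8 barcodes occurred more than once, and 1 microglia carried such a barcode. The UMIs of mt-Rnr2 per UMI of mt-Cytb, over all cells, placed the mice in 3 pairs of 1 PBS and 1 ASO mouse, at 7.16 and 4.49 (PBS 2, ASO 2), 12.9 and 10.9 (PBS 1, ASO 1) and 16.8 and 15.9 (PBS 3, ASO 3). These pairs were seen in the data and the labels name no batch, so differences within pairs are given beside the genes that passed, Apoe and the larger gene lists, in the order of mice 1, 2 and 3.

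Microglia made up 14.1%, 13.2% and 16.3% of all cells in PBS 1 to 3 and 14.4%, 8.86% and 15.3% in ASO 1 to 3. The groups overlapped, and ASO 2 had the lowest share. The means were 14.5% ± 1.56 (SD, n = 3) and 12.8% ± 3.47, a difference of -1.70 percentage points (two-sided exact permutation test over 20 assignments, p = 0.7, where 0.1 is the smallest value possible). Without ASO 2 the difference was 0.29 percentage points, without PBS 3 -0.83 and without ASO 3 -2.90. The cells with a macrophage UMI made up 5.44% ± 2.56 of the class in PBS mice and 8.43% ± 1.45 in ASO mice, a difference of 3.00 percentage points (exact permutation p = 0.3), and of 1.69 (exact permutation p = 0.6) without PBS 3. Shares of dissociated cells depend on recovery, which was not measured.

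Mylip RNA in microglia was lower in every ASO mouse than in any PBS mouse. Its normalised level was 396.6, 458.8 and 449 CPM in PBS 1 to 3 and 187.6, 237.4 and 219.7 CPM in ASO 1 to 3. The groups were 434.8 ± 33.5 and 214.9 ± 25.2 CPM (SD, n = 3), which is 50.6% lower in the ASO mice. In the edgeR quasi-likelihood test over 5123 genes, Mylip fell by 1.04 on the log2 scale (standard error, SE, 0.180, Benjamini-Hochberg adjusted p = 0.00262). The log2 differences within the pairs were -1.05, -0.93 and -1.01. The level rested on 100, 113 and 142 UMIs in PBS mice and 72, 40 and 55 UMIs in ASO mice, and the adjusted p was 0.0658 without PBS 2 and 0.108 without ASO 1.

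Most Mylip UMIs of the profiled cells lay in the microglia, which held 522 of all 729 Mylip UMIs (71.6%) and 12.8% of all UMIs. These shares depend on the recovery of each cell type, which was not measured. Cells outside the class had a Mylip level of 12.56, 22.53 and 17.95 CPM in PBS 1 to 3, against 15.72, 13.98 and 6.545 CPM in ASO 1 to 3, with overlap. The ASO effect in microglia minus that in the other cells was -0.56 on the log2 scale (SE 0.302, edgeR adjusted p = 0.898), so a difference between microglia and the rest of the cells in the loss of Mylip was not detected at the 104 PBS and 83 ASO UMIs outside the class. The value moved with single mice, to -0.17 without ASO 1 and -0.84 without ASO 3, and was -2.07 (SE 1.10) against astrocytes alone, none past the threshold.

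The difference was also seen in the share of cells. After each cell was thinned to 500 UMIs, 16.7%, 18.8% and 18.1% of PBS microglia had a Mylip UMI, with 95% exact binomial intervals from 12.4% to 24.0% over the 3 mice. In ASO 1 to 3 the shares were 7.39%, 8.60% and 12.4%, with intervals from 4.997% to 16.9%. Before thinning the shares were 27.8% to 31.2% and 14.3% to 17.2%. For comparison, a Mylip UMI was found in 0.220%, 0.665% and 0.233% of the oligodendrocytes of PBS 1 to 3 at the same 500 UMIs. In ASO 1 to 3 it was found in 0% of oligodendrocytes. Microglia with at least 2 Mylip UMIs numbered 11, 16 and 11 in PBS mice (4.28%, 6.02% and 3.21%) and 3, 1 and 4 in ASO mice (0.739%, 0.538% and 1.498%). Both shares were lower in all ASO mice than in all PBS mice, but Mylip UMIs remained in microglia of each ASO mouse.

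Il1b RNA was higher in all ASO mice than in all PBS mice. Its normalised level was 360.9, 377.6 and 316.2 CPM in PBS 1 to 3 and 576, 569.9 and 703 CPM in ASO 1 to 3, or 351.6 ± 31.8 against 616.3 ± 75.1 CPM (SD, n = 3). Il1b rose by 0.82 on the log2 scale (SE 0.164, edgeR adjusted p = 0.0218), with 0.66, 0.58 and 1.13 within the pairs. The call depended on the mice and on the cells counted. Without PBS 1, PBS 2, PBS 3, ASO 1 or ASO 3 the difference was 0.71 to 0.88 and the edgeR adjusted p 0.0658 to 0.263, and without ASO 2 it was 0.87 (adjusted p = 0.00796).

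The rule itself bore on Il1b. Over the whole class, macrophage-marked cells included, the log2 difference was 0.45 (edgeR adjusted p = 0.779), and it was 1.06 (adjusted p = 0.0145) over the 1323 microglia with a UMI of P2ry12 or Tmem119. The cells with macrophage UMIs held 40, 55 and 0 Il1b UMIs in PBS 1 to 3 and 29, 0 and 22 in ASO 1 to 3, beside 91, 93 and 100 and 221, 96 and 176 in the microglia. Over the 1260 microglia without any UMI of a wider macrophage or monocyte list, the difference was 0.65 (adjusted p = 0.273). Cells outside the class had 1.02 to 4.19 CPM.

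A small number of cells held much of the Il1b RNA. At 500 UMIs per cell, 6.23%, 11.3% and 6.997% of PBS microglia and 9.85%, 11.8% and 9.74% of ASO microglia had an Il1b UMI, and these ranges overlapped. Cells with at least 3 Il1b UMIs numbered 4, 5 and 4 in PBS mice (1.56%, 1.88% and 1.17%) and 12, 5 and 14 in ASO mice (2.96%, 2.69% and 5.24%). They held 39.1% to 48.5% of the Il1b UMIs in PBS 1 to 3 and 46.3% to 77.1% in ASO 1 to 3. The share of cells with several Il1b UMIs was thus higher in the ASO mice, on 5 to 14 cells each, and the share with any UMI was not separated. The limits of 2, 3 and, for Apoe, 20 UMIs were chosen after the values were seen, and the binomial intervals cover counting error only.

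**Figure D2:**
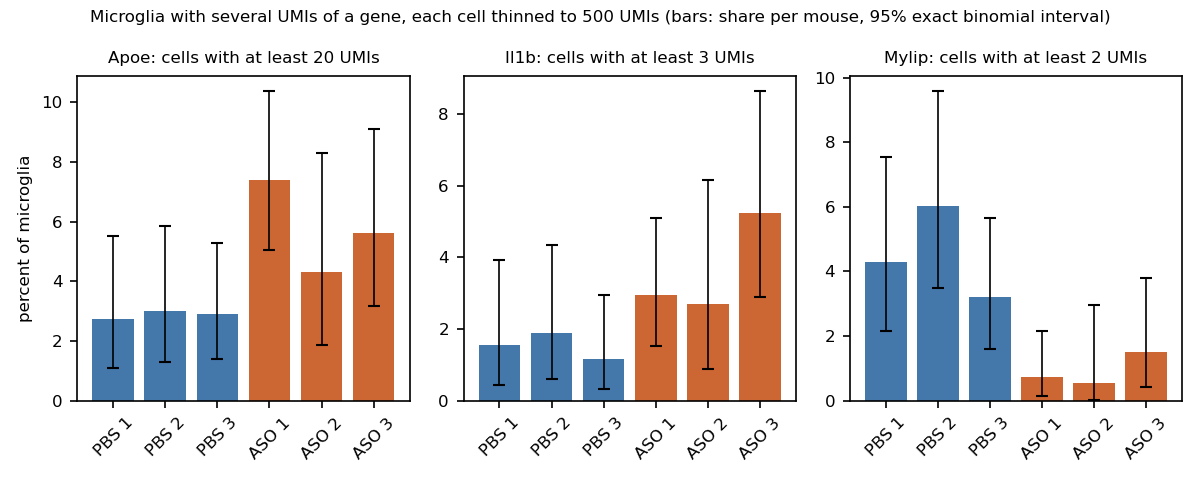
Percent of microglia in each mouse with at least 20 Apoe, 3 Il1b or 2 Mylip UMIs after thinning to 500 UMIs per cell, with 95% exact binomial intervals. Shares for Apoe and Il1b are higher and those for Mylip lower in each ASO mouse than in each PBS mouse, with wide and partly overlapping intervals.

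Mylip and Il1b were the 2 of 5123 genes past the threshold of 0.05 (0.039%), with 269 genes (5.25%) at an unadjusted p under 0.05. The normalised levels of the groups did not overlap for 10.5% of all genes tested, 5.13% with the ASO mice above and 5.37% below. An unadjusted p under 0.05 was reached by 2.62% of genes higher and 2.64% lower in ASO mice, while 49.1% of genes were higher and 50.9% lower at any size. The median log2 difference of all genes was -0.0067. These shares are the background for the gene groups that follow, none of which was tested as a group. The lists share genes, so they are not independent of each other. For example, the disease-associated list shares Trem2, Tyrobp and Axl with the phagocytic receptors and Ctsd and Npc2 with the lysosomal genes. It also shares B2m with antigen presentation and Apoe with the LXR targets.

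Cytokines and genes of the NF-kB pathway had a median log2 difference of 0.22 over 22 tested members of 29, with 18 higher and 4 lower. Il1b passed the threshold, and 5 members (Il1b included) had an unadjusted p under 0.05, all higher. Cxcl2 stood at 99.2, 190.8 and 129.6 CPM in PBS 1 to 3 and 258, 225.6 and 203.7 CPM in ASO 1 to 3, a log2 difference of 0.73 (SE 0.223, edgeR adjusted p = 0.548). Ccl3, a chemokine for monocytes and T cells, differed by 0.38 (SE 0.162) and did not overlap between groups. Tnf, the gene of tumour necrosis factor, named after its values were seen, differed by 0.43 (SE 0.167). Ccl4, another chemokine, differed by 0.24 (SE 0.168) and Nfkbia, the inhibitor of NF-kB, by 0.01 (SE 0.160), both with overlapping groups. The median of the list was 0.54, 0.23 and -0.24 within the pairs, and 0.09 to 0.29 over the alternative analyses, with the lowest value without PBS 1 (12 higher and 11 lower) and 0.13 without ASO 2.

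Tlr2 had 122.9, 223.3 and 161.3 CPM in PBS 1 to 3 and 362.3, 279 and 275.6 CPM in ASO 1 to 3, a log2 difference of 0.88 (SE 0.206, edgeR adjusted p = 0.112). Lilrb4, an inhibitory receptor of myeloid cells, had 150.7, 113.7 and 126.5 against 289.3, 178.1 and 227.7 CPM, also a difference of 0.88 (SE 0.219, adjusted p = 0.193). In both genes the lowest ASO mouse lay above the highest PBS mouse. Of the genes next to the threshold on this side, Gm1673, named by its symbol only, differed by 1.34 (SE 0.336, adjusted p = 0.193) on 7 to 32 UMIs per mouse.

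The genes of the disease-associated state were mostly higher in ASO mice, and none passed the threshold. Of 36 listed genes 32 were tested, of which 31 were higher and Lgals3 was lower, with a median log2 difference of 0.30. An unadjusted p under 0.05 was reached by 13, all higher, and 11 did not overlap between the groups, all with the ASO mice above. Spp1, Clec7a, Gpnmb and the symbol Lilrb4a were not tested because of low counts or absence. The median ranged from 0.27 to 0.38 over the alternative analyses, but it was 0.003 in the pair of PBS 2 and ASO 2, against 0.37 and 0.55 in the others.

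Apoe and Lyz2 both showed this difference between mice. Apoe stood at 5822, 7082 and 6030 CPM in PBS 1 to 3 and at 12160, 7331 and 10370 CPM in ASO 1 to 3, so that ASO 2 lay just above PBS 2. The log2 difference was 0.66 (SE 0.173, edgeR adjusted p = 0.222), with 1.06, 0.05 and 0.78 within the pairs, and without ASO 2 it was 0.84 (adjusted p = 0.0138). Lyz2 stood at 920.1, 1173 and 894.9 against 1876, 1181 and 1542 CPM, a difference of 0.64 (SE 0.167, adjusted p = 0.222). Over the whole class the difference in Lyz2 was 0.89 (adjusted p = 0.0216), past the threshold, as it was without ASO 2 (0.79, adjusted p = 0.0151). Apoe passed with limma voom too (adjusted p = 0.0322). Both genes are abundant in border macrophages. Over the microglia without any UMI of a wider macrophage or monocyte list, Apoe differed by 0.63 and Lyz2 by 0.78. Over the microglia with a UMI of P2ry12 or Tmem119 they differed by 0.70 and 0.59. None of these values passed the threshold. The wider macrophage markers, 14 genes all with at least 1 UMI, were summed. The sum was 244 to 349 CPM in PBS and 232 to 325 CPM in ASO microglia. Of the 14 genes 3 were tested, with 2 higher and 1 lower in ASO mice. The lower gene was the scavenger receptor Stab1 (-0.55, SE 0.251), named after its values were seen. A sum can hide opposite changes, so macrophage content was not tested by it.

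Receptors and effectors of the same state did not pass the threshold either. Trem2, the lipid receptor that the state depends on, stood at 2082, 2071 and 1736 against 2408, 2268 and 2520 CPM, a log2 difference of 0.29 (SE 0.157, edgeR adjusted p = 0.917). Its adaptor Tyrobp differed by 0.25 (SE 0.163), with overlapping groups. Cst7, a cysteine protease inhibitor, stood at 797.2, 917.7 and 607.1 against 1058, 1003 and 1082 CPM, a difference of 0.44 (SE 0.162, adjusted p = 0.745). Itgax, the integrin chain CD11c, differed by 0.90 (SE 0.339, adjusted p = 0.785). The genes Trem2, Tyrobp, Cst7 and Itgax were named after their values were seen.

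**Figure D3:**
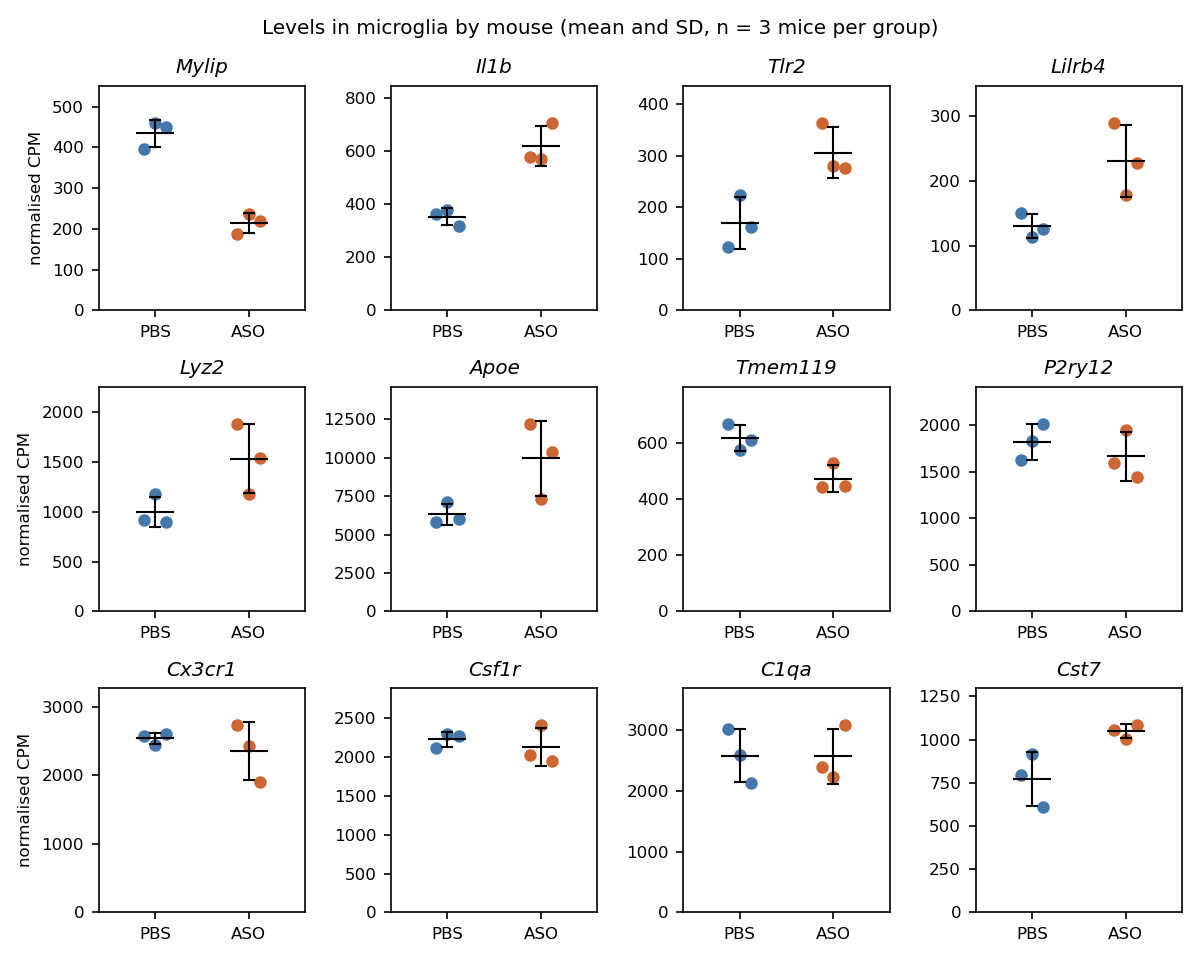
Normalised CPM of 12 genes in the microglia of each mouse (dots), with the mean and SD of the 3 mice in each group. Mylip is lower and Il1b higher in all ASO mice, Apoe and Lyz2 of ASO 2 lie at the level of PBS 2, and P2ry12, Cx3cr1 and C1qa overlap between groups.

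The resting genes leaned the other way, by less. Of 28 homeostatic genes, all tested, 4 were higher and 24 lower in ASO mice, none past the threshold, with a median log2 difference of -0.14. An unadjusted p under 0.05 was reached by 5, all lower, and 4 did not overlap, all with the ASO mice below. Tmem119 stood at 666.3, 576.6 and 610.3 CPM in PBS 1 to 3 and 443.1, 528.3 and 447.3 CPM in ASO 1 to 3, a difference of -0.40 (SE 0.160, edgeR adjusted p = 0.836). P2ry12 differed by -0.14 (SE 0.160), Cx3cr1 by -0.11 (SE 0.161), Csf1r by -0.07 (SE 0.157) and C1qa by -0.01 (SE 0.166), each with overlapping groups and a sign that turned under other settings for Cx3cr1, Csf1r and C1qa. Crybb1, a crystallin gene expressed by adult microglia, differed by -0.59 (SE 0.266) on 19 to 47 UMIs per mouse. The median was -0.003 in the pair of PBS 2 and ASO 2 and -0.14 and -0.38 in the others, and -0.19 to -0.09 over the alternative analyses, with the value nearest to 0 without PBS 3.

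Transcription factors and growth signals of the lineage had a median of -0.12 over 18 tested genes of 20, with 5 higher and 13 lower, and 4 lower at an unadjusted p under 0.05. The median was -0.01, -0.07 and -0.42 within the pairs, -0.03 without ASO 3 and -0.22 without ASO 1. Runx1, a transcription factor, differed by -0.41 (SE 0.175) and Csf2rb, a shared cytokine receptor chain, by -0.73 (SE 0.320), neither past the threshold. Ccnd3, a cyclin of the G1 phase, stood at 487.8, 418.2 and 471.2 CPM in PBS 1 to 3 and 242.4, 314.6 and 351.5 CPM in ASO 1 to 3, a difference of -0.63 (SE 0.175, edgeR adjusted p = 0.318). Tnks, a tankyrase gene, differed by -1.59 (SE 0.413) on 15 to 19 UMIs per PBS mouse and 2 to 11 per ASO mouse. Tmem245, Tpm3-rs7 and Unc5d were the other lower genes nearest to the threshold, at -0.92 (SE 0.258), -0.58 (SE 0.162) and -1.24 (SE 0.379), all without overlap. Proliferation genes were mostly below the filter, with 4 of 20 tested, none of them past the threshold; Hmgb2, a chromatin protein, differed by -0.30 (SE 0.232) and Tubb5, a tubulin, by 0.20 (SE 0.211).

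Stress genes that respond to dissociation were more often lower, but not without PBS 3. Of 28 tested genes 9 were higher and 19 lower in ASO mice, with a median of -0.12, and 6 lay below without overlap and 1 above. Without PBS 3, 15 were higher and 13 lower with a median of 0.04, and the medians within the pairs were 0.008, 0.08 and -0.45. Fosb, a subunit of AP-1, stood at 666.3, 531.9 and 777.9 against 490, 391.8 and 451.3 CPM, a difference of -0.56 (SE 0.166, edgeR adjusted p = 0.529). Klf4, a transcription factor, differed by -0.73 (SE 0.258). Genes of this list are known to respond to dissociation of tissue, and their part in the other differences was not tested.

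Lysosomal genes had a median of 0.16 over 41 tested genes of 45, with 31 higher and 10 lower, 5 higher at an unadjusted p under 0.05 and none past the threshold. The median was 0.22, -0.13 and 0.28 within the pairs, and 0.09 without ASO 3. Npc2, a carrier of cholesterol out of the lysosome, stood at 1015, 1462 and 1085 CPM in PBS 1 to 3 and 1645, 1537 and 1646 CPM in ASO 1 to 3, a log2 difference of 0.44 (SE 0.160, edgeR adjusted p = 0.745). Man2b1, a lysosomal mannosidase, differed by 0.41 (SE 0.160). Of 19 phagocytic receptors and their ligands 13 were higher, with a median of 0.11 (0.03, 0.02 and 0.21 within the pairs). Cd14, a co-receptor for endotoxin, differed by 0.39 (SE 0.167), though by -0.12 in cells with few UMIs of other cell types, and Axl, a receptor for engulfing dying cells, by 0.68 (SE 0.303) on 10 to 41 UMIs per mouse. Both had an unadjusted p under 0.05, and neither passed the threshold with all 6 mice or in any alternative analysis.

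Complement and antigen presentation differed little. Among 8 tested complement genes 3 were higher and 5 lower, with a median of -0.01 (-0.14, 0.004 and 0.16 within the pairs), and C1qb stood at 4958, 5547 and 4768 against 5640, 5598 and 6031 CPM (difference 0.18, SE 0.159). C5ar1, the receptor of the fragment C5a, differed by -0.36 (SE 0.213). Antigen presentation genes had a median of 0.09 over 18 genes (0.24, -0.10 and 0.28 within the pairs), with 0.03 without PBS 1 and 0.24 without PBS 2, and B2m, the light chain of MHC class I, differed by 0.26 (SE 0.167). Interferon response genes were largely below the filter, with 10 of 27 tested and a median of 0.29. This median was 0.42, -0.17 and 0.71 within the pairs, -0.0015 without PBS 3 (5 higher and 5 lower), 0.02 without PBS 1 and 0.70 without PBS 2, so it rested on single mice. Ifitm3, an antiviral membrane protein, differed by 0.87 (SE 0.333) on 6 to 30 UMIs and Sp100, a nuclear body protein, by 0.94 (SE 0.409) on 5 to 16.

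Lipid genes were examined because IDOL belongs to the LXR response. Of 23 listed LXR targets and lipid efflux genes 11 were tested, and Mylip alone passed the threshold. Among the 11, 5 were higher and 6 lower, and the lower ones include Mylip, the targeted gene. Besides Mylip, an unadjusted p under 0.05 was reached by Apoe (0.66, SE 0.173) and Lpl (0.41, SE 0.167), both higher. Apoe did not overlap between groups, Lpl did, and neither passed the threshold. Lpl was named after its values were seen. The median, which counts Mylip, was -0.05 and ranged from -0.17 to 0.22 over the alternative analyses. Abca1 and Abcg1, the transporters that export cholesterol and are textbook LXR targets, differed by 0.26 and -0.14, with overlapping groups and neither past the threshold. Both were named after their values were seen. Lipoprotein receptors and uptake genes had a median of 0.03 over 9 tested of 15, none past the threshold, and from -0.27 to 0.15 over the alternatives. Sort1, the sorting receptor sortilin, stood at 150.7, 170.5 and 189.7 against 135.5, 106.9 and 91.9 CPM, a difference of -0.58 (SE 0.232, edgeR adjusted p = 0.828), and Lrpap1, a chaperone of the receptors, differed by 0.43 (SE 0.223). Vldlr and Lrp8, receptors that IDOL is known to mark, had too few UMIs to be tested, with a UMI in at most 1.12% and 0.752% of microglia of any mouse at 500 UMIs per cell. Cholesterol synthesis genes were below the filter except Ebp and Scap, which differed by 0.33 (SE 0.356) and 0.0039 (SE 0.422).

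Genes around the amyloid precursor had a median of 0.14 over 13 tested of 23, with 9 higher and 4 lower, and -0.03 to 0.25 over the alternative analyses. Itm2c, a membrane protein that binds the amyloid precursor, differed by 0.30 (SE 0.162) without overlap and Adam17, an alpha-secretase, by 0.33 (SE 0.246). Nuclear genes of oxidative phosphorylation had a median of 0.19 over 69 genes, 53 of them higher, and ribosomal protein genes 0.14 over 82 genes, 73 of them higher. Without PBS 3 these medians were 0.10 and 0.09, and without PBS 2 they were 0.23 and 0.24. Within the pairs they were 0.14, 0.125 and 0.31 for the first list and 0.23, 0.06 and 0.12 for the second. Atp5e, a subunit of ATP synthase, differed by 0.57 (SE 0.196), Ndufa2, of complex I, by 0.56 (SE 0.206), and Rpl18 and Rpl38, of the large ribosomal subunit, by 0.38 (SE 0.171) and 0.36 (SE 0.172). None of the 4 passed the threshold. The median share of mitochondrial UMIs, a sign of cell quality, was 3.72% to 6.21% in PBS and 3.92% to 5.82% in ASO mice, and its part in these shifts was not tested.

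**Figure D4:**
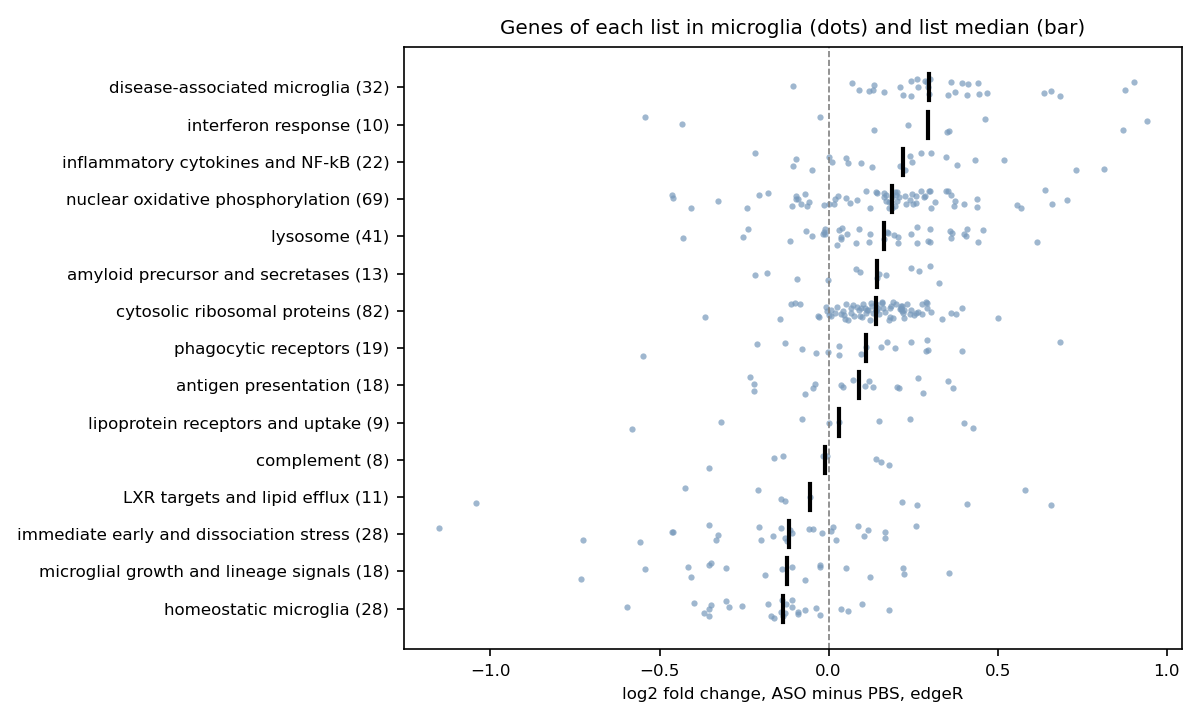
Log2 difference (ASO minus PBS) of each tested gene (dots) and the median (bar) in the 15 lists with at least 8 tested genes. Disease-associated genes lie mostly above 0 (median 0.30) and homeostatic genes mostly below (median -0.14).

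RNA of oligodendrocytes was found in the droplets of the microglia, at a higher level in the 3 ASO mice. All 7 oligodendrocyte markers had UMIs, and their sum was 975 to 1180 CPM in PBS and 1421 to 1505 CPM in ASO microglia. The sums of astrocyte, neuron and endothelial markers overlapped, at 615 to 853 against 658 to 968 CPM, 182 to 263 against 211 to 223 CPM and 97.1 to 193 against 161 to 195 CPM. Over the 650 microglia with fewer than 2 UMIs of these other cell types, Mylip differed by -0.83 (adjusted p = 0.452) and Il1b by 0.70 (adjusted p = 0.460), and no gene passed the threshold.

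The microglia were far from uniform in a few genes. The Fano factor, the variance over the mean of a gene's UMIs across cells thinned to 500 UMIs, would be 1 for counting noise alone. Its median was 1.10 over 1160 genes with a mean of at least 0.05 UMIs, and 48 genes exceeded 1.5. Apoe had 14.7, far above the rest. It was followed by the mitochondrial ribosomal RNA mt-Rnr2 with 5.21, Cd74 with 4.61, Cst3, which encodes cystatin C, with 4.35, Ccl4 with 3.97 and Ctsd, which encodes the lysosomal protease cathepsin D, with 3.74. Nfkbia had 3.16, Il1b 2.90 and Ccl3 2.76. The value of Apoe was 12.02 to 17.7 over the 6 mice. Of these genes Cst3, Ctsd, Cd74 and mt-Rnr2 did not pass the test between groups, with log2 differences of 0.10 (SE 0.168), 0.30 (SE 0.171), 0.21 (SE 0.229) and -0.04 (SE 0.195), and mt-Rnr2 and Cd74 turned sign under other settings.

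A few microglia held very many Apoe UMIs. At 500 UMIs per cell, 35.8% to 55.4% of the microglia of a mouse had an Apoe UMI, but so did 51.2% to 57.6% of oligodendrocytes, so that share is not read as expression. No oligodendrocyte had more than 9 Apoe UMIs. Microglia with at least 20 Apoe UMIs numbered 7, 8 and 10 in PBS 1 to 3 (2.72%, 3.01% and 2.92%) and 30, 8 and 15 in ASO 1 to 3 (7.39%, 4.30% and 5.62%). These cells held 30.5% to 37.3% of the Apoe UMIs in PBS and 39.0% to 49.5% in ASO mice. The mean over the remaining cells was 1.44, 1.83 and 1.502 UMIs in PBS 1 to 3 and 2.78, 1.35 and 2.64 in ASO 1 to 3, against 0.848 to 0.995 in oligodendrocytes. ASO 1 and ASO 3 were thus higher in both measures, and ASO 2 was lower than the PBS mice in the remaining cells.

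Apoe content went with the other state genes across cells, given as a description because the same cells supply both and because a single Apoe UMI lies at the level of the oligodendrocytes. In the 980 microglia with no Apoe UMI, the 667 with 1 to 19 and the 78 with 20 or more, P2ry12 stood at 1972, 1085 and 394 CPM and Tmem119 at 637, 313 and 106 CPM. Cst7 stood at 140, 1441 and 2511 CPM and Lyz2 at 388, 1694 and 4734 CPM. C1qa differed far less, with 2128, 2362 and 2607 CPM. Mylip stood at 313, 263 and 160 CPM, and Il1b was highest in the middle cells, at 234, 655 and 543 CPM. Cells of PBS and ASO mice were pooled for all these levels. Of the cells with 20 or more Apoe UMIs, 30, 8 and 15 came from ASO 1 to 3 and 7, 8 and 10 from PBS 1 to 3. The part of the treatment in these levels, those of Mylip and Il1b included, was not tested. In the wider macrophage list, Stab1, a scavenger receptor, stood at 144, 67.4 and 0 CPM, but Cd36 at 10.15, 10.57 and 21.28 CPM. Cd74 was also higher in cells with more Apoe UMIs, with 84.3, 223 and 266 CPM. Outside the class Apoe stood at 3561 to 5084 CPM, and in astrocytes, the main source of brain apolipoprotein E, at 14560 to 19490 CPM.

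The ASO effect differed from that in the other cells for 1 of 5120 genes (0.0195%) at an edgeR adjusted p under 0.05. This was Sgk1, a kinase induced by glucocorticoids, whose level in microglia was 1043 ± 93.4 CPM in PBS and 1107 ± 162 CPM in ASO mice (SD, n = 3), and outside the class 404.5 ± 65.5 and 240 ± 45.8 CPM. The difference of the log2 effects was 0.86 (SE 0.166, adjusted p = 0.0289). It did not pass when the fit left out PBS 1, PBS 2, ASO 1 or ASO 2 (adjusted p = 0.109 to 0.659). Oligodendrocytes, which are among those cells, had 1254 ± 91.2 CPM in PBS and 612 ± 248 CPM in ASO mice. The difference of effects was 0.53 (SE 0.199, adjusted p = 0.824) for Apoe, with 0.86 (adjusted p = 0.0172) without ASO 2 and 0.29 without ASO 1. It was -0.43 (SE 0.538) for Il1b (7 PBS and 19 ASO UMIs outside the class), -0.06 without ASO 2, and turned to 0.38 with doublets kept. Neither gene passed the threshold with all 6 mice.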

How the data were processed

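The authors deposited 1 table of UMI counts per gene and cell, with no normalization: whole numbers for 28324 genes (24078 with a count) and 12823 cells, each column named by mouse and by the authors' class. Per the submitters' processing notes, the tools were STAR 2.5.0c and bcl2fastq and the builds GRCm38 and mm10; which program counted the UMIs, and on which annotation, is not given in the sources used here. Cells in the table had 569 to 1999 UMIs, at least 501 genes and at most 15.0% mitochondrial UMIs.

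Doublets were called per mouse with Scrublet (scanpy 1.11.5, Python 3.11.15), and 207 cells, 51 of them microglia by the rule, were removed. Raw counts of the microglia were summed per mouse, without the 8 genes of the rule, and tested in R 4.3.3 with edgeR 4.0.16 (genes kept by filterByExpr, scaling by TMM, tests by glmQLFit and glmQLFTest, two-sided, Benjamini-Hochberg over all genes tested, threshold 0.05, all 6 mice, no covariate). The same script was tested on simulated data. SE is the log2 difference divided by the root of F. Normalised CPM is over tested genes after TMM scaling, and other CPM is over all UMIs. The effect in microglia against all cells outside the class was tested as an interaction term in edgeR, with the mouse as block. Shares were compared by exact permutation (scipy 1.17.1). For shares with a UMI and for Fano factors each cell was thinned to 500 UMIs.

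Members and gene lists were chosen with earlier results of these data known. Genes named were Mylip, the 5 markers, genes past the threshold, the 6 higher and 6 lower genes of lowest p that did not pass, the 2 members of lowest p in each list, and the 10 highest Fano factors; other names are marked where given or are not tested, and 1 gene that the rule names is not reported here. Mice are numbered within groups by sample order, a number that names a mouse only; the 3 pairs of mice were read from the ratio of mitochondrial transcripts and happen to join equal numbers. Alternatives were DESeq2 1.42.0 and its size factors, limma 3.58.1 voom, a robust fit, no filter, doublets kept, at most 10% mitochondrial UMIs, totals thinned to equality, other definitions of the microglia (that by P2ry12 or Tmem119 was chosen after seeing the data), a term for the 3 pairs of mice, and each mouse left out.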

Additional observations from a re-analysis of the deposited data

Results flagged for a closer look

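The ASO effect on Sgk1 in microglia minus that in all cells outside the class was 0.86 on the log2 scale (edgeR interaction model, adjusted p = 0.0289), the single difference between cell sets past the threshold among 5120 genes, with 286 genes at an unadjusted p under 0.05. Sgk1 was at similar levels in PBS and ASO microglia and lower outside the class in ASO mice. Against astrocytes alone the difference was 0.69 and did not pass. Without PBS 1 it was 0.73 (adjusted p = 0.209), without PBS 2 0.86 (0.170), without ASO 1 0.64 (0.659) and without ASO 2 0.86 (0.109), and it passed without PBS 3 or ASO 3.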

How the results depend on the processing

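Over 20 alternatives Mylip kept its direction, at -1.12 to -0.83, and passed the threshold in 16. It missed it with totals thinned to equality (-0.89), in cells with few UMIs of other cell types (-0.83), and without PBS 2 or ASO 1, with a range of -1.10 to -0.93 over the mice left out. Against 2 genes called, edgeR called 6 with no filter, 4 with the robust fit, 0 with totals thinned (184 genes at an unadjusted p under 0.05), 1 without wider macrophage and monocyte UMIs, 0 in cells with few UMIs of other cell types (130 unadjusted) and 0 to 7 with a mouse left out. Without ASO 2 the 7 included Mylip, Il1b, Apoe, Lyz2, Lilrb4 and Tlr2. With a replicate block for the 3 pairs of mice, 4 genes were called (among them Mylip, Il1b and Tlr2). Deviations from the group means correlated at -0.0261 to 0.0772 within pairs and -0.0813 to 0.0333 across. The pairing was not used in the main test because the labels name no batch and do not pair mice. Il1b kept its direction in all 20 and passed in 11. The difference in the share of microglia was -2.90 to 0.29 percentage points with a mouse left out. The comparison with other cells called 0 genes against astrocytes (246 unadjusted), 2 with doublets kept and 0 to 2 with a mouse left out. Of 1012 further gene values over 52 genes, 974 kept their direction. The 38 that turned belonged to 9 genes. Outside the left-out mice these were 0.00254, 0.00273, 0.00775, 0.0111, 0.0322 and 0.00867 for C1qa, -0.0193, -0.0968, -0.0211, -0.0455 and -0.0816 for Scap, -0.00546, -0.0114, -0.0299, -0.0323 and -0.0341 for Nfkbia, -0.422, -0.348 and -0.243 for Cd74, 0.0176 for mt-Rnr2, -0.0762 for Tubb5, 0.0415 for Csf1r and -0.122 for Cd14. With a mouse left out the ranges were -0.157 to 0.123 for C1qa, -0.229 to 0.0256 for Cx3cr1, -0.449 to 0.398 for Scap, -0.275 to 0.297 for mt-Rnr2, -0.0581 to 0.424 for Cd74 and -0.0775 to 0.0960 for Nfkbia. The cause was not tested. Depth limits rare genes, which the filter left untested.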

Other observations

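Ttr, the transthyretin gene of the choroid plexus, stood at 3744, 5924 and 60.1 CPM in the microglia of PBS 1 to 3 and at 3860, 2665 and 8104 CPM in those of ASO 1 to 3, so PBS 3 held far less than any other mouse. The sum of the 5 choroid plexus markers ranged from 77.5 to 5496 CPM in PBS mice and from 2537 to 7471 CPM in ASO mice. Red blood cell markers stood at 101 to 152 against 118 to 226 CPM, and markers of T, NK and B cells at 14.3 to 32.4 against 13.6 to 31.6 CPM. Monocyte and neutrophil markers stood at 13.9 to 46.5 against 17.4 to 57.9 CPM, with S100a8, S100a9, Ly6g and Retnlg at 0 in every mouse.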
